A study of Mus musculus with 75 samples.

Results

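A set of 39 interferon-stimulated genes was examined out of the 24984 genes counted in each RNA-seq library of mouse skin fibroblasts. They were chosen by name, as genes of the type I interferon response, by a rule that uses no measured value. Earlier results of these data were known when the choice was made. All 39 were found in the count files. The study followed replicative senescence (RS), the growth arrest that primary fibroblasts reach by passaging, and then changed the level of 3 transcription factors in such cells.

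The 44 RNA-seq libraries came from mouse skin fibroblasts in 5 experiments. The passage experiment followed untreated cells of 2-month-old female mice from P1 through P3 and P5 to P7, with 4 libraries at each passage. For E2f4 overexpression, 2 libraries of pre-senescent cells (P4) carried a lentiviral construct of E2f4 labelled with EGFP, switched on by doxycycline. The 2 vector control libraries came from cells that expressed EGFP without E2f4, kept in the same culture condition. E2f4 knockdown was done in P3 cells with the short hairpin sh1 (3 libraries), beside 3 libraries that carried a non-targeting control (nt). For Tead1 knockdown there were 3 libraries each of the hairpins sh3 and sh4 and 3 of nt, and for Atf3 knockdown, in pre-senescent cells, 3 each of sh5, sh6 and nt. Every knockdown cell, nt controls included, had received a lentivirus and puromycin, and no untreated library stood beside them. According to the methods, the manipulated cells came from 2-month-old or newborn mice, and which library came from which source was not given. Transcripts of the Y-linked Ddx3y were counted beside Xist in all intervention libraries, and Ddx3y had no count in the passage libraries. Nothing in the labels says that numbered libraries were separate cultures or animals, so the p-values measure the spread between these libraries, which may be technical.

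Type I interferons are secreted when a cell detects foreign or misplaced nucleic acid. They bind the receptor IFNAR1-IFNAR2 on the same or a neighbouring cell, and Janus kinases then phosphorylate STAT2, which joins IRF9 in a complex that binds the interferon-stimulated response element (ISRE) in the promoters of the genes described here. The products restrict viruses at many steps, sense RNA and DNA, or feed back on the pathway. Fibroblasts keep a low tonic level of these transcripts without infection.

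The promoters are shown first because the response element is the route by which the pathway is known to reach genes of this kind. RefSeq promoters on GRCm38.p6 (250 bases before to 50 bases after each gene start) matched 30 members; Usp18, Oas2, Mx1, Mx2, Dhx58, Zbp1, Rtp4, Parp9 and Parp14 had no entry. The core of the ISRE, searched as GAAA, any 2 bases and GAAA again on either strand, was found in 16 of these 30 members (53.3%), against 3.99% of 27025 genes with promoters of the same length. Before the gene start alone it was found in 12 members (40.0%), against 3.46% of all genes. The gamma-activated site, TTCNNNGAA, was found in 7 of the 30 members (23.3%) against 9.55% of all genes. These are matches of letters, not measured binding. The 250 bases before the start are printed 5′ to 3′ for 5 members that hold the ISRE core there and are followed in every library below, with the matching letters in capitals. The windows are chr19:34640639-34640888 on the plus strand for Ifit1, chr4:156200819-156201068 on the minus strand for Isg15, chr10:128270248-128270497 on the plus strand for Stat2, chr8:71537473-71537722 on the minus strand for Bst2 and chr3:142620413-142620662 on the plus strand for Gbp2.
Ifit1: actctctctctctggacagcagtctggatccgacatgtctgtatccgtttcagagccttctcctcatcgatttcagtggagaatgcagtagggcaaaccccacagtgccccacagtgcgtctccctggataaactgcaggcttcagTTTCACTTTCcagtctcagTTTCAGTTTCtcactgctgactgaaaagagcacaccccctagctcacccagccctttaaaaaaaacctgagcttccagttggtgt
Isg15: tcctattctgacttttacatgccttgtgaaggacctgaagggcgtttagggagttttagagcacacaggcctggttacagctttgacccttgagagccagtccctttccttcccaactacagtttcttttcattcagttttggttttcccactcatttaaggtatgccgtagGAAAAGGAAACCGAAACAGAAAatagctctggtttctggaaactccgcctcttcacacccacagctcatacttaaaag
Stat2: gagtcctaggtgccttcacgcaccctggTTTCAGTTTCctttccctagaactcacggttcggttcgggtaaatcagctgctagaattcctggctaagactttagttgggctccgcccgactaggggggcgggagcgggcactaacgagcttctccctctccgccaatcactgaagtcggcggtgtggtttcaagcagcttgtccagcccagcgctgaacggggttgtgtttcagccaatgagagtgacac
Bst2: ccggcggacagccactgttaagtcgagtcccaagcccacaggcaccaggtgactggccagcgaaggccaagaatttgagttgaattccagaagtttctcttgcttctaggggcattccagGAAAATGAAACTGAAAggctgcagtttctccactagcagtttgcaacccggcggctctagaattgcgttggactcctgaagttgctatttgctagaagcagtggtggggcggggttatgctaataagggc
Gbp2: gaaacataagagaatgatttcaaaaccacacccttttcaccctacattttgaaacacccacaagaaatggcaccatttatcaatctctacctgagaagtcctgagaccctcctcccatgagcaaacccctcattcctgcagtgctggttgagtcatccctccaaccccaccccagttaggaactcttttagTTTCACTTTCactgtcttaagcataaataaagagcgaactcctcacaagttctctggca
Ifit1 held 2 separate matches, Isg15 held 3 that overlap, Bst2 held 2 that overlap, and Stat2 and Gbp2 held 1 each. The match nearest to the start ended 49 bases before it in Gbp2, 56 bases in Isg15, 75 bases in Ifit1, 114 bases in Bst2 and 212 bases in Stat2.

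Levels are given as read counts relative to the library's total (CPM) after TMM scaling within an experiment, so levels of different experiments are set side by side without a test. A gene was called higher or lower when its adjusted p was under 0.05 and its change was over 2-fold. Library totals ran from 9147324 to 27552949 counts. After a filter on low counts, 38 members were tested in the passages (not Mx1), 32 in the overexpression experiment (not Oasl1, Oas2, Oas3, Mx1, Mx2, Rsad2 and Cmpk2), 37 in the E2f4 knockdown (not Oas3 and Mx1), and 36 each in the Tead1 and Atf3 knockdowns (not Oas2, Oas3 and Mx1). The targeted genes moved in the direction of their labels, to different degrees. E2f4 was 1118 and 1180.0 CPM with overexpression against 35.5 and 47.5 in the vector libraries, and 21.6, 20.4 and 21.8 CPM with sh1 against 59.6, 60.8 and 59.6 in nt. Tead1 was 268, 284 and 285 CPM with sh3 and 315, 313 and 320.4 with sh4 against 572, 508 and 544 in nt, which passed the adjusted p with both hairpins but not the 2-fold limit. Atf3 was low in its own experiment, at 1.46, 2.1 and 0.451 CPM with sh5 and 1.51, 1.56 and 2.09 with sh6 against 3.31, 2.85 and 2.77 in nt. Its log2 fold change was -1.14 with sh5 (adjusted p = 0.0447) and -0.79 with sh6 (adjusted p = 0.114). In 1 library, Atf3 nt replicate 1, most members stood far above the other nt libraries, so the Atf3 results are given with and without it. Fibroblast genes (12 listed, none at 0 in any group) summed to between 20210 and 45800 CPM. Of other cell types, 15 macrophage genes summed to 381.5 to 583.4 CPM at P1, 54.7 to 73.7 at P3, 24.2 to 36.5 at P5 and 36.1 to 60.1 at P7, and to no more than 24.8 CPM in any intervention library. They also were higher with E2f4 sh1 (15.4 to 23.3 CPM) than with its nt (5.81 to 12.8), with Cd163 at 0 in both groups. The fibroblast genes summed to 31150 to 34510 CPM with sh1 and 39970 to 40840 with its nt. The 8 skeletal muscle genes summed to 111.7 to 136.3 and 75 to 76.6 CPM, with Myog and Myod1 at 0 in both groups. Skeletal muscle genes were lower with Tead1 sh3 (64.9 to 75.5) and sh4 (73.65 to 83.5) than with nt (98.4 to 100). They also were lower with E2f4 overexpression (23.05 to 24.1) than with vector (67.45 to 77.05). The part of these differences in the results was not tested.

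**Figure D1:**
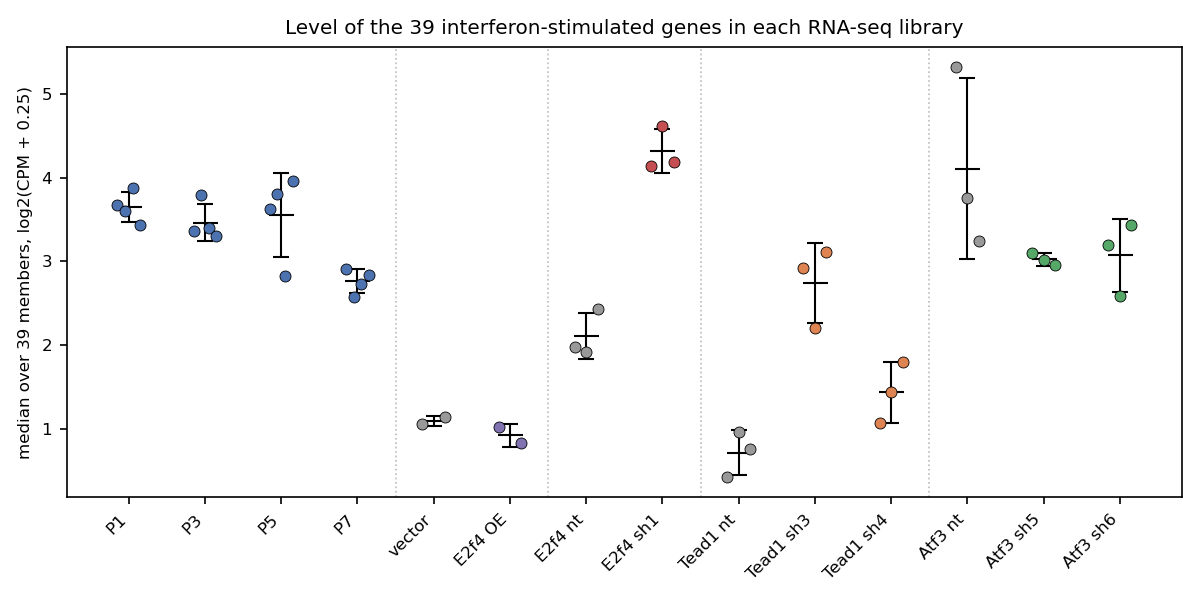
Median level of the 39 interferon-stimulated genes in each of 44 RNA-seq libraries. The y axis is the median over the 39 genes of log2(CPM + 0.25), each point is a library, the long bars are group means with SD, and dotted lines separate the 5 experiments, which were scaled apart. The group mean fell from 3.65 at P1 to 2.76 at P7, stood at 4.32 with E2f4 sh1 against 2.11 in its nt group and at 2.74 with Tead1 sh3 against 0.72 in its nt group, and 1 Atf3 nt library stands far above the other two.

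With passaging, the interferon-stimulated genes were lower at the end than at the start. From P1 to P7, 20 of 38 members tested fell by more than 2-fold and 1, Ifit3, rose, while 13.3% of all 13442 genes tested were called lower and 8.1% higher. The median log2 fold change was -1.04 over the members and -0.01 over all genes. The lowest values were those of Oasl2 (-2.64), Oasl1 (-2.23) and Cmpk2 (-2.21). The mean was lowest at P7 for 33 of the 39 members and highest at P1 for 27. In bulk RNA, fewer cells of a type and less RNA per cell cannot be told apart, and marker genes of other cell types fell over the same interval. Of those tested, 12 of 13 macrophage, 5 of 6 keratinocyte, 7 of 7 endothelial and 6 of 7 skeletal muscle genes were called lower at P7 than at P1 and none higher. The 8 keratinocyte genes summed to between 57.5 and 364 CPM at P1 and between 4.73 and 7.87 at P7, the 7 endothelial genes to between 158 and 179.7 and between 8.86 and 12.04, and the 8 skeletal muscle genes to between 153 and 248 and between 39.04 and 109.7. Their part in the members' decline was not tested.

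The decline was not even over the passages. From P1 to P3, 1 member was called lower (Oas3, log2 fold change -1.74, SE 0.36, adjusted p = 0.000956) and none higher, against 6.58% and 2.4% of all genes. The count was 4 without P1 replicate 4, 3 without P3 replicate 1 and 2 without P1 replicate 1 or P3 replicate 2. Without regard to fold, 10 members passed the adjusted p downward and 1 upward from P1 to P3. The median log2 fold change of this step was -0.34 over the members and 0.005 over all genes. From P3 to P5, Ifit3 rose (log2 fold change 1.03, SE 0.19, adjusted p = 0.00059) and Oasl1 fell (log2 fold change -1.10, SE 0.41, adjusted p = 0.049), against 0.841% higher and 3.05% lower of all genes. Each of the 8 fits that left out 1 library of P3 or P5 kept at most 1 of these calls, and none was kept without P3 replicate 3 or P5 replicate 4. The median of this step was 0.11 over the members and 0.006 over all genes. From P5 to P7, 6 members fell and none rose, against 2.28% and 1.19%, and 20 members, against 9.1% of all genes, passed the adjusted p in the downward direction without regard to fold. The 6 were Oasl2 (-2.02), Mx2 (-1.40), Rtp4 (-1.29), Trim30a (-1.21), Ifit1 (-1.20) and Usp18 (-1.04). The median of this step was -0.69 over the members and -0.01 over all genes. Between P3 and P7, 6 members were called lower and 1 higher, against 7.41% and 4.44% of all genes, and the median was -0.54. Markers of other cell types fell in this interval too. Of the macrophage genes tested, 8 of 13 were called lower and 1 higher (median -1.37). All 7 endothelial genes (median -2.71, summed level 43.1 to 54.4 CPM at P3) and 6 of 7 skeletal muscle genes (median -4.93, summed level 55 to 62.7 CPM at P3) were called lower. From P5 to P7 no macrophage gene was called lower and 1 was called higher, and 2 endothelial and no skeletal muscle genes were called lower. The part of these genes' cells in the result was not tested. By group means, 23 members fell, rose and fell again over the 4 passages, 11 fell at every step and only Ifit3 rose at every step. Without P5 replicate 3, in which 31 of the 39 members had their lowest value at P5, 10 members were called lower from P5 to P7.

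Among the IFIT family, whose products bind viral RNA that lacks host cap marks, Ifit1 was 12.7, 13.3, 17.3 and 10.6 CPM at P1, 12.3, 17.4, 10.1 and 9.58 at P3, 21.4, 17.2, 6.79 and 21.1 at P5 and 6.87, 6.1, 6.84 and 9.06 at P7. Ifit3 took the opposite course, with 12.5, 11.9, 12 and 11.4 CPM at P1, 13.7, 13.9, 11.5 and 10.5 at P3, 30.9, 26, 14.2 and 29.9 at P5 and 28.2, 26.1, 23.4 and 35.3 at P7. No P7 value of Ifit3 overlapped with P1 or P3 (log2 fold change 1.24, SE 0.19, adjusted p = 1.02e-05 against P1), whereas Ifit1 at P7 lay below all P1 and P3 values. Isg15, a ubiquitin-like modifier joined to other proteins, was 29.5, 31, 27 and 20.4 CPM at P1, 18.9, 16.9, 12.1 and 10.02 at P3, 13.6, 14.7, 10.1 and 37.5 at P5 and 13.8, 11, 7.76 and 9.72 at P7. Usp18, which removes ISG15 from proteins and damps the receptor, was 11.7, 10.7, 14.4 and 6.68 CPM at P1, 9.27, 11.2, 6.77 and 5.19 at P3, 9.89, 6.78, 4.97 and 15.6 at P5 and 4.58, 5.63, 3.38 and 4.45 at P7. Both were below P1 in every P7 library and spread widely at P5, where replicate 4 was highest. Trim25, a ubiquitin ligase of the RIG-I pathway, was 68.6, 71.1, 70.4 and 57.7 CPM at P1, 64.8, 67.8, 65.9 and 58 at P3, 68.9, 76.5, 62.6 and 75.3 at P5 and 54.8, 62.5, 68.2 and 56.6 at P7. Its groups overlapped throughout (log2 fold change -0.15, SE 0.09, adjusted p = 0.188 for P7 against P1).

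Oasl2, a member of the oligoadenylate synthetase family that senses double-stranded RNA, gave the largest fall. It was 24, 19.3, 24.5 and 14.1 CPM at P1, 9.86, 13.9, 13.1 and 9.8 at P3, 14.1, 13.7, 6.4 and 19 at P5 and 4.28, 3.09, 2.15 and 3.56 at P7. Every P7 library was below every earlier one, and the fall from P5 to P7 (log2 fold change -2.02, SE 0.28, adjusted p = 5.64e-05) exceeded that from P1 to P3 (-0.81), although the difference between those steps was not tested. Mx2, a dynamin-like antiviral GTPase, was present at under 2 CPM, with 0.753, 1.56, 1.09 and 1.11 CPM at P1, 0.92, 1.03, 0.709 and 0.585 at P3, 1.23, 0.968, 1.1 and 1.39 at P5 and 0.687, 0.154, 0.538 and 0.371 at P7. The P7 values were below all P1 and P5 values.

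The 3 transcription factors and the sensors given next had their lowest means at P7, unlike the RNA sensor Dhx58, which was lowest at P3 (mean 4.32 CPM, against 5.27 at P7). Irf7, which drives interferon production, was 11.4, 10.7, 12.7 and 6.68 CPM at P1, 7.56, 8.16, 6.51 and 5.12 at P3, 8.46, 9.82, 7.37 and 13.4 at P5 and 6.95, 5.01, 4.84 and 3.19 at P7. Irf9, the DNA-binding partner of STAT2, was 41.4, 38.8, 42.6 and 34.7 CPM at P1, 35.6, 35.1, 32.4 and 27.9 at P3, 31.5, 38.3, 29.5 and 39.9 at P5 and 27, 26.2, 20.8 and 25.8 at P7. Stat2 was 55.7, 56.5, 69.4 and 48.5 CPM at P1, 44.6, 48.4, 44.8 and 31.3 at P3, 54.3, 64, 48.4 and 66.4 at P5 and 41.8, 38.1, 40.4 and 35.4 at P7. For Irf7, P7 replicate 1 overlapped with the lowest P1 library, and for Irf9 and Stat2 no P7 library reached the P1 or P5 range. Ddx58, which encodes the RNA sensor RIG-I, was 46.9, 49.1, 64.3 and 41.6 CPM at P1, 53.2, 61.2, 61.8 and 59.9 at P3, 63.6, 62.7, 42.8 and 60.6 at P5 and 38.2, 38.2, 40.8 and 41 at P7. Ifih1, which encodes the sensor MDA5, was 24, 20.9, 20.1 and 18.5 CPM at P1, 16.1, 21.7, 18.2 and 19.1 at P3, 14.7, 19.6, 11.9 and 17.5 at P5 and 8.86, 7.41, 9.76 and 8.68 at P7. Eif2ak2, the kinase PKR that stops translation on sensing double-stranded RNA, was 57.2, 66.9, 67.9 and 60.0 CPM at P1, 55.3, 59.7, 68.9 and 57 at P3, 51.4, 68.4, 40.8 and 51.5 at P5 and 42.3, 39.7, 56.2 and 51.1 at P7. Ifih1 fell past the 2-fold limit from P3 to P7 (log2 fold change -1.11, SE 0.15, adjusted p = 6.11e-06) with no overlap, and Eif2ak2 and Ddx58 did not (-0.35 and -0.58).

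Of the other effectors, Bst2, the membrane protein tetherin that holds budding virions on the cell, was 69.7, 77.3, 70.6 and 53.5 CPM at P1, 55.3, 47, 46.5 and 34.7 at P3, 37.7, 51.7, 36.4 and 76.3 at P5 and 39.5, 31.6, 26.6 and 30.2 at P7. Lgals3bp, a secreted galectin-binding glycoprotein, was 351, 329, 401 and 270.0 CPM at P1, 283, 278, 255 and 237 at P3, 237, 288, 239.7 and 366 at P5 and 200, 185, 187 and 177 at P7. P5 replicate 4 was the highest P5 library for both. Lgals3bp at P7 lay below all earlier libraries, while Bst2 at P7 lay below P1 and overlapped with P3 and P5. Parp14, an ADP-ribosyltransferase, was 36, 35.2, 41.3 and 28.5 CPM at P1, 28.2, 28.7, 28.3 and 21.9 at P3, 23.6, 29.2, 16.1 and 25 at P5 and 15, 12.5, 16.1 and 18.2 at P7. Gbp2, a guanylate-binding GTPase, was 7.67, 7.54, 7.72 and 6.43 CPM at P1, 7.89, 11.7, 10.2 and 12.3 at P3, 12.1, 12, 7.37 and 11 at P5 and 7.71, 6.33, 6.22 and 10.2 at P7. Parp14 fell between P1 and P7 with no overlap (log2 fold change -1.19, SE 0.16, adjusted p = 2.84e-06), and Gbp2, higher at P3 and P5 by its means, did not pass the test between these passages (log2 fold change 0.06, SE 0.19, adjusted p = 0.809). The 3 called members with the smallest fall from P1 to P7 were Dtx3l (-1.04), Oas2 (-1.05) and Irf7 (-1.05).

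Knockdown of E2f4 with sh1 was accompanied by a broad rise. No other E2f4 hairpin had RNA-seq libraries, so an effect of low E2f4 and one of this hairpin cannot be told apart. Of 37 members tested, 30 were called higher and none lower, while 1.46% of all 12310 genes were called higher and 0.211% lower. The median log2 fold change was 1.94 over the members and -0.01 over all genes. These 30 members were 16.7% of the 180 genes called higher, and 20 more of those genes were among 48 other interferon-induced genes listed. The strongest rises were those of Ifit1 (log2 fold change 3.54, SE 0.33, adjusted p = 7.24e-06), Isg15 (log2 fold change 3.34, SE 0.21, adjusted p = 2.14e-07) and Usp18 (log2 fold change 3.26, SE 0.30, adjusted p = 6.73e-06). The smallest rises past the limit were those of Irf9 (1.09), Ddx58 (1.13) and Dtx3l (1.17), and Ifit2, Herc6, Trim25, Eif2ak2, Samhd1, Ifi35 and Trim21 did not pass it. E2f4 nt replicate 1 stood apart in that 18352 genes had a count, against 14984 and 15510 in the other nt libraries, and 30 members were called without it.

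Ifit1 was 30.6, 59.8 and 23.2 CPM with sh1 and 2.43, 3.05 and 4.26 with nt. Isg15 was 29.8, 43.5 and 46.2 CPM with sh1 and 2.91, 3.54 and 5.23 with nt. Usp18 was 20.3, 37.7 and 17.9 CPM with sh1 and 1.65, 3.15 and 3.1 with nt. For these 3 genes the lowest sh1 library was several times above the highest nt library. Trim25 was 123, 126 and 111 CPM with sh1 and 92.8, 86.9 and 88.7 with nt, a rise within the 2-fold limit (log2 fold change 0.42, SE 0.07, adjusted p = 0.000883). Oasl2 was 24.1, 46.8 and 27.9 CPM with sh1 and 2.82, 2.66 and 5.81 with nt. Mx2 was 2.2, 4.27 and 2.3 CPM with sh1 and 0.291, 0.394 and 0.677 with nt, and both of these genes were highest in sh1 replicate 2, the library with the highest value of 32 of the 39 members within its group. Mx1, the other Mx gene, had no count in any nt library, where 3 counts correspond to at least 0.289 CPM, and 0.287, 0.766 and 0.547 CPM with sh1; it was too low for the test.

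The transcription factors rose as well. Irf7 was 18.9, 24.4 and 18.8 CPM with sh1 and 3.69, 5.02 and 6 with nt (log2 fold change 2.08, SE 0.18, adjusted p = 5.88e-06). Irf9 was 51.7, 63.6 and 52.2 CPM with sh1 and 23.4, 26.7 and 28.6 with nt. Stat2 was 89.6, 116 and 90.05 CPM with sh1 and 33.4, 42.9 and 45.3 with nt (log2 fold change 1.28, SE 0.12, adjusted p = 8.01e-06). No library of one group reached the range of the other for any of the 3. Separation of groups this small is a description and not a test. For RNA-seq, its share over all genes is given below for E2f4 overexpression alone. Among the RNA sensors, Ddx58 was 113, 136 and 95 CPM with sh1 and 52.1, 50.6 and 54.1 with nt. Ifih1 was 22.6, 30.3 and 21.7 CPM with sh1 and 6.8, 7.88 and 12.4 with nt. Eif2ak2 was 60.3, 81.2 and 72.9 CPM with sh1 and 39, 36.7 and 48 with nt (log2 fold change 0.79, SE 0.12, adjusted p = 0.000394). The groups were apart for these too, and Eif2ak2 stayed below the 2-fold limit. Bst2 was 74.7, 91.8 and 117 CPM with sh1 and 18, 18.7 and 27.2 with nt. Lgals3bp was 218, 236 and 297 CPM with sh1 and 84.3, 94.4 and 109.6 with nt. Parp14 was 17.4, 21.6 and 14.1 CPM with sh1 and 8.94, 5.71 and 8.71 with nt. Bst2 showed the largest change of the 3 (2.15 against 1.38 and 1.18). Gbp2 was 10.1, 12.5 and 10.6 CPM with sh1 and 1.75, 3.74 and 3.1 with nt (log2 fold change 1.94, SE 0.24, adjusted p = 8.57e-05), with every sh1 library above every nt library.

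For Tead1, the hairpins left the target at means of 279 CPM (sh3) and 316 CPM (sh4), and the interferon-stimulated genes rose more with sh3 than with sh4. In the sequences listed by the study, the target stretches of sh3 and sh4 overlap almost fully, so these hairpins are not independent of each other. With sh3, 25 of 36 members tested were called higher and none lower, against 1.99% and 0.722% of all 13012 genes, and the median was 1.59. With sh4, 5 members were called higher and none lower, against 1.01% and 0.523% of all genes, and the median was 0.49. These 5 were Mx2 (2.60), Oasl2 (1.55), Isg15 (1.49), Ifit1 (1.18) and Trim30a (1.14). The comparisons share the nt libraries, so the hairpins were also compared directly: 14 members were lower with sh4 than with sh3 and none higher, against 0.246% and 0.0231% of all genes. These 14 members were 43.8% of the 32 genes called lower. They were led by Cmpk2 (-3.15), Rsad2 (-2.42) and Ifit1 (-2.08), and the smallest of the called differences were those of Gbp2 (-1.01), Gbp7 (-1.05) and Isg15 (-1.18). Tead1 itself differed between the hairpins by a log2 fold change of 0.18 (adjusted p = 0.00625), higher with sh4. Without sh4 replicate 3, the highest sh4 library for 28 members, 2 members were called with sh4, and 2 were called without nt replicate 1. Without sh4 replicate 1, 9 members differed between the hairpins.

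Rsad2, which encodes the antiviral enzyme viperin, had the largest fitted change with sh3 (log2 fold change 3.90, SE 0.59, adjusted p = 3.37e-06). It was 2.96, 0.882 and 1.42 CPM with sh3, 0.361, 0.22 and 0.377 with sh4 and 0.0578, 0.17 and 0.103 with nt, where the 3 libraries together held 6 counts. Mx2 was 0.855, 0.441 and 1.96 CPM with sh3, 0.361, 0.55 and 0.539 with sh4 and 0, 0.113 and 0.103 with nt, where they held 4 counts (log2 fold change 3.77, SE 0.72, adjusted p = 9.65e-05 for sh3). The size of these 2 changes therefore depends on very few control reads. Oasl2 followed, with 9.63, 4.91 and 9.36 CPM with sh3, 1.08, 1.71 and 3.77 with sh4 and 0.636, 1.08 and 0.517 with nt (log2 fold change 3.42, SE 0.34, adjusted p = 1.93e-09 for sh3). Ifit1 was 12.7, 5.18 and 11.1 CPM with sh3, 1.08, 2.48 and 3.29 with sh4 and 0.694, 1.3 and 0.982 with nt. All sh3 libraries of Ifit1 were above all sh4 libraries, and sh4 replicate 1 lay among the nt values. Isg15 was 7.29, 5.74 and 9.58 CPM with sh3, 1.85, 3.3 and 4.85 with sh4 and 1.1, 1.02 and 1.4 with nt. Usp18 was 9.29, 3.86 and 8.38 CPM with sh3, 1.39, 1.21 and 2.8 with sh4 and 0.578, 1.53 and 0.62 with nt. The 3 groups of Isg15 were in strict order, while those of Usp18 with sh4 and nt overlapped (log2 fold change 0.99, SE 0.41, adjusted p = 0.0671).

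Irf7 was 7.35, 5.68 and 8.87 CPM with sh3, 1.91, 1.82 and 3.56 with sh4 and 1.5, 1.93 and 1.97 with nt. Irf9 was 21.7, 20.1 and 25.4 CPM with sh3, 11.8, 16.5 and 17.7 with sh4 and 12.7, 11.8 and 12.3 with nt. Stat2 was 32.8, 31.2 and 37.8 CPM with sh3, 19.5, 19.8 and 25.1 with sh4 and 14.9, 15 and 15.8 with nt. For Stat2 the 3 groups did not overlap, and sh4 differed from nt by less than 2-fold (log2 fold change 0.49, SE 0.10, adjusted p = 0.000231). Ddx58 was 45.3, 40.5 and 52.1 CPM with sh3, 27.9, 32.9 and 35.6 with sh4 and 24.6, 26.8 and 26 with nt. Ifih1 was 11.8, 10.4 and 12 CPM with sh3, 5.46, 6 and 7.97 with sh4 and 4.33, 4.99 and 3.88 with nt. Eif2ak2 was 34.2, 39.5 and 46.2 CPM with sh3, 26.9, 30.4 and 34.6 with sh4 and 28.9, 32.3 and 33.5 with nt. Ifih1 was called with sh3 (1.38), and Ddx58 (0.83) and Eif2ak2 (0.34) were not.

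Bst2 was 27.1, 30.6 and 40.1 CPM with sh3, 12.3, 16.6 and 20.9 with sh4 and 12.9, 12.2 and 10.3 with nt. Lgals3bp was 116, 139 and 173 CPM with sh3, 74.6, 95.5 and 105 with sh4 and 64.2, 63.2 and 59.6 with nt. Every sh3 library of both was above every sh4 library. Parp14 was 7.64, 4.3 and 10.1 CPM with sh3, 3.81, 4.07 and 5.39 with sh4 and 3.7, 3.23 and 3.36 with nt. Trim25 was 73, 66.6 and 73.7 CPM with sh3, 57, 54.3 and 66.2 with sh4 and 54.9, 58.2 and 50.2 with nt. Gbp2 was 5.53, 3.25 and 4.25 CPM with sh3, 1.65, 2.81 and 1.99 with sh4 and 1.79, 1.13 and 1.19 with nt. For these 3 genes every sh3 library was above every nt library, and for Trim25 and Gbp2 also above every sh4 library. The smallest called changes with sh3 were those of Parp14 (1.10), Parp9 (1.12) and Stat2 (1.15). Samhd1, which lowers the supply of nucleotides for viral DNA synthesis, was the single member that passed the adjusted p downward. It was 54.4, 56.7 and 62.2 CPM with sh3 and 66.3, 64.5 and 61 with sh4 against 79.9, 74.9 and 77.7 with nt, lower with both hairpins by less than 2-fold (log2 fold change -0.42, SE 0.06, adjusted p = 3.75e-07 for sh3, -0.28 for sh4). It was the one member with a negative log2 fold change with sh3, whereas with sh4 Zbp1 (-0.35), Cmpk2 (-0.05) and Eif2ak2 (-0.05) also had negative values that did not pass the test. In sh3 replicate 2, 33 of the 39 members had their lowest value among the sh3 libraries.

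The E2f4 and Tead1 experiments share no library, so their calls can be laid over each other. Of 180 genes higher with E2f4 sh1 and 259 higher with Tead1 sh3, 60 were shared, which is 33.3% of the first and 23.2% of the second list. All 25 members called with Tead1 sh3 were among the 30 called with E2f4 sh1, so members made up 25 of the 60 shared genes, and 15 others were from the list of further interferon-induced genes. The 5 members called with sh1 but not with sh3 were Oas2, which was not tested there, Irf9, Ddx58, Zbp1 and Dtx3l.

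**Figure D2:**
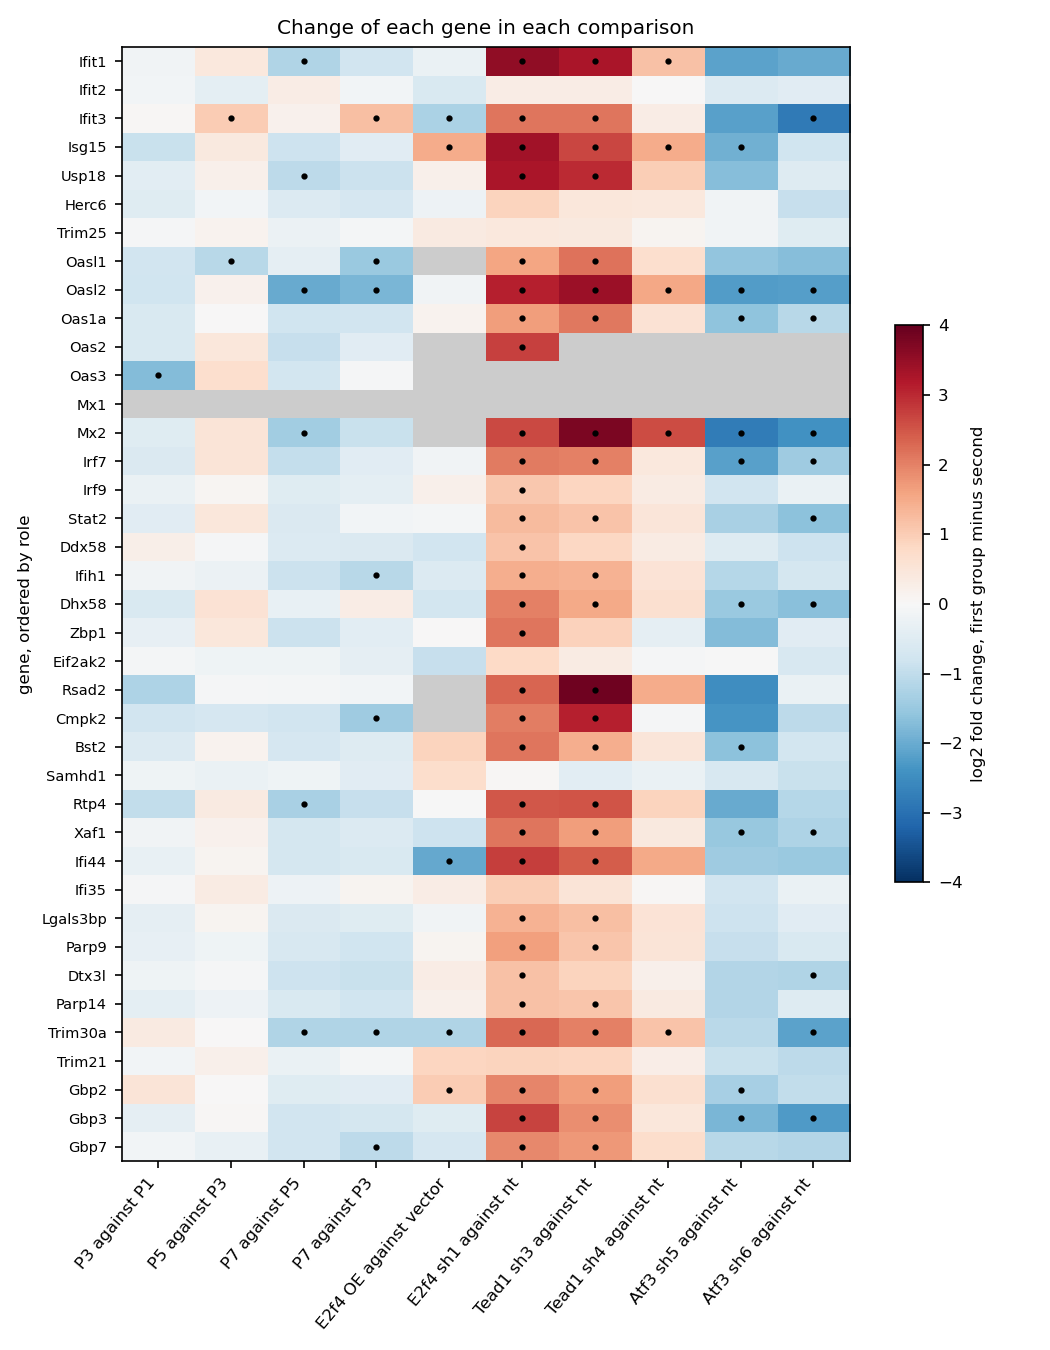
Log2 fold change of each of the 39 members (rows, ordered by role) in 10 comparisons (columns), from blue (lower) to red (higher). Dots mark calls at adjusted p under 0.05 and over 2-fold, and grey cells were not tested. The E2f4 sh1 column holds 30 dots and the Tead1 sh3 column 25, all in red cells, against 5 for Tead1 sh4, while the 6 dots for P7 against P5 are in blue cells.

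To separate change with a hairpin from change with passaging, the difference between the hairpin's log2 fold change and that of P7 against P3 was tested in 1 fit of all 44 libraries, in which all 39 members were among the 14751 genes tested. For E2f4 sh1, 30 members differed upward and none downward, against 5.17% and 3.21% of all genes, with a median difference of 2.46. For Tead1 sh3, 29 differed upward and none downward, against 6.8% and 4.99%, with a median of 2.00. For Tead1 sh4, 11 differed upward and none downward, against 6.81% and 4.99%, with a median of 1.08. Such a difference holds both the hairpin's change and the passage change, and only 5 members were called with sh4 against nt. Among the 11, Mx2 had 2.59 with sh4 and -0.88 from P3 to P7. Dtx3l, by contrast, had 0.20 and -0.87, and Ifih1 0.55 and -1.11. The 11 are therefore not a count of members that rose with sh4. The largest differences were those of Oasl2 (4.95, SE 0.63, adjusted p = 1.06e-07) and Ifit1 (4.31, SE 0.90, adjusted p = 0.000377) for E2f4 sh1, of Oasl2 (5.23, SE 0.72, adjusted p = 2.42e-07) and Mx2 (4.62, SE 1.26, adjusted p = 0.0034) for Tead1 sh3, and of Mx2 (3.47, SE 1.35, adjusted p = 0.0401) and Oasl2 (3.38, SE 0.80, adjusted p = 0.000837) for Tead1 sh4. Oasl2 fell between P3 and P7 and rose with each of these hairpins. For Tead1 sh4 the count was 4 without sh4 replicate 2, 5 without sh4 replicate 3 and 6 without any 1 of the nt libraries.

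All 6 members called lower at P7 against P3 (Cmpk2, Gbp7, Ifih1, Oasl1, Oasl2 and Trim30a) were called higher with E2f4 sh1 and with Tead1 sh3. Of the 20 members lower at P7 against P1, 18 were called higher with E2f4 sh1 and 16 with Tead1 sh3. Since 30 of 37 members tested were called higher with sh1 and 25 of 36 with sh3 in any case, nothing particular to the members that fell is read from this. Over all genes, 47 of the 1792 lower at P7 against P1 (2.62%) were called higher with sh1 and 88 (4.91%) with sh3. Ifit3 was the single member called higher both with passaging and with these hairpins. It was 19.6, 33.6 and 18.2 CPM with E2f4 sh1 against 4.18, 5.71 and 6.39 in nt, and 12, 5.84 and 8.38 CPM with Tead1 sh3 against 1.1, 3.17 and 1.6 in nt. Its difference from the passage change did not pass the test for E2f4 sh1 (0.94, SE 0.70, adjusted p = 0.338) or Tead1 sh3 (0.94, SE 0.74, adjusted p = 0.34).

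**Figure D3:**
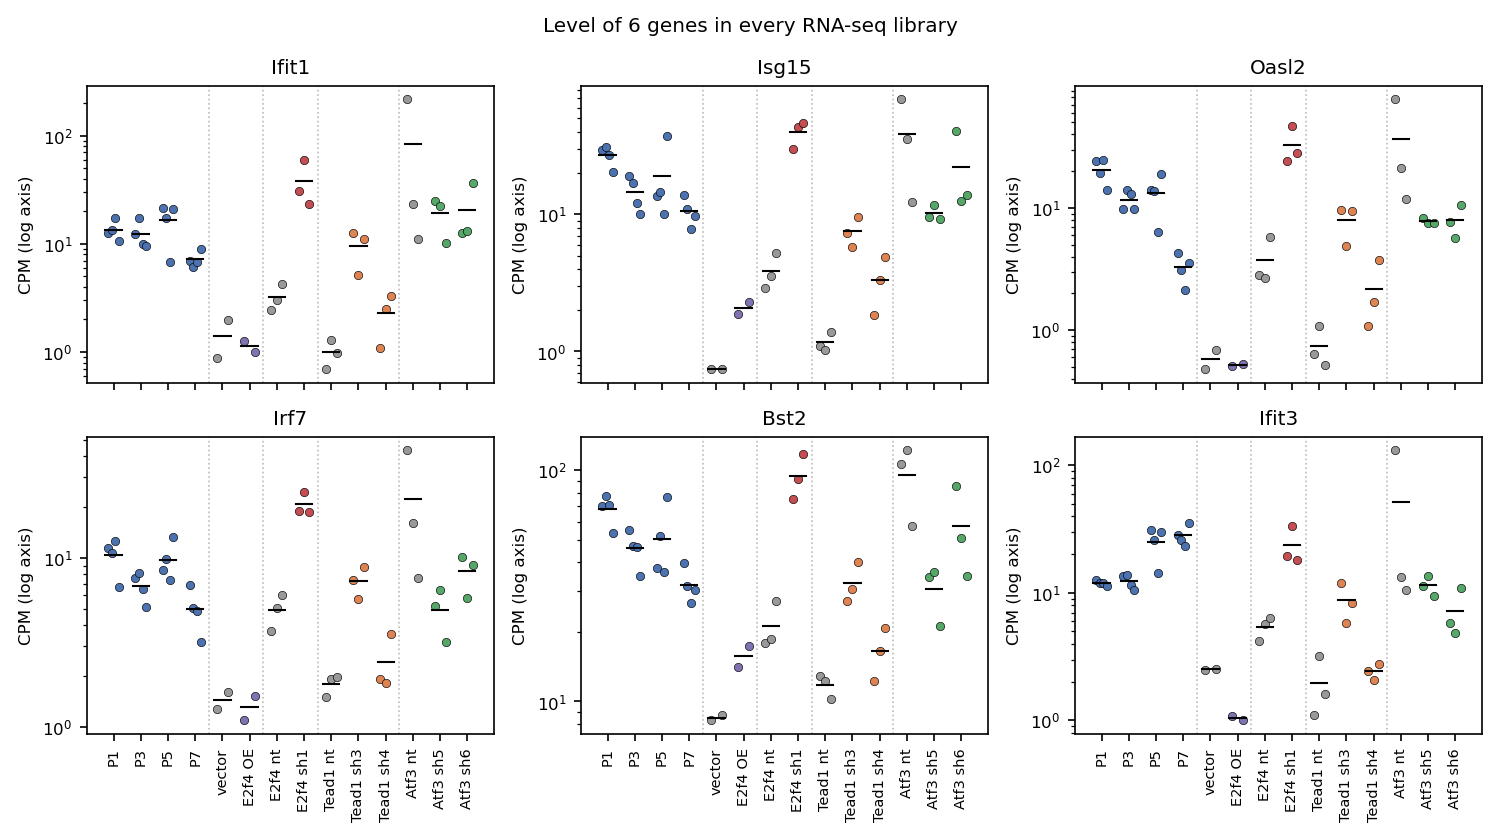
Levels of Ifit1, Isg15, Oasl2, Irf7, Bst2 and Ifit3 in every RNA-seq library, in CPM on a log axis. Points are libraries, short bars are group means, and dotted lines separate the 5 experiments. Oasl2 stood between 2.15 and 4.28 CPM in the P7 libraries and at or above 6.40 CPM in all earlier ones, whereas Ifit3 was higher at P7 than at P1 and P3.

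With E2f4 overexpression, few members changed. Of 32 members tested, 2 were called higher and 3 lower, against 7.69% and 10.4% of all 13199 genes, so the shares of members called were near or below the background. The median log2 fold change was -0.11 over the members. Isg15 (log2 fold change 1.47, SE 0.35, adjusted p = 0.00443) and Gbp2 (log2 fold change 1.01, SE 0.17, adjusted p = 0.000545) rose, and Ifi44 (log2 fold change -2.03, SE 0.48, adjusted p = 0.00424), Ifit3 (log2 fold change -1.25, SE 0.31, adjusted p = 0.00515) and Trim30a (log2 fold change -1.21, SE 0.27, adjusted p = 0.00318) fell. All 5 were among the 30 members higher with E2f4 sh1. Since most members tested were called there in any case, nothing is read from this. Xist (560 to 686 against 1156 to 1400 CPM) and the Y-linked Ddx3y (7.36 to 9.96 against 36.5 to 36.8 CPM) both were lower in the overexpression libraries than in the vector libraries, and the part of such a difference in these results was not tested.

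Isg15 was 1.89 and 2.29 CPM with overexpression and 0.742 and 0.749 with vector. Gbp2 was 10.3 and 10.2 CPM with overexpression and 5.2 and 4.96 with vector. Ifit3 was 1.09 and 1 CPM with overexpression and 2.49 and 2.54 with vector. For each, both libraries of one group lay outside the other, as did 41.2% of all genes in the upward and 40.3% in the downward direction with 2 libraries a group. Ifi44, an interferon-induced cytoplasmic protein, was 0.218 and 0.43 CPM with overexpression and 1.22 and 1.38 with vector. Trim30a, a TRIM protein that restrains inflammatory signalling, was 1.45 and 1.58 CPM with overexpression and 3.75 and 3.23 with vector. Bst2 was 14.1 and 17.4 CPM with overexpression and 8.29 and 8.7 with vector, a rise within the 2-fold limit (log2 fold change 0.89, SE 0.16, adjusted p = 0.000968). The sensor genes Ddx58 and Eif2ak2 fell within that limit. Ddx58 was 32.3 and 29.3 CPM with overexpression and 53.9 and 52.1 with vector (log2 fold change -0.78, SE 0.12, adjusted p = 0.00029). Eif2ak2 was 28.2 and 24.9 CPM with overexpression and 52.6 and 47.2 with vector (log2 fold change -0.91, SE 0.13, adjusted p = 0.000175). Both sensors were lower in each overexpression library than in either vector library.

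Of the 4 members that rose most with E2f4 sh1 (Ifit1, Isg15, Usp18 and Oasl2), Isg15 alone passed the test with overexpression. Ifit1 was 1.27 and 1 CPM with overexpression and 0.873 and 1.96 with vector. Usp18 was 1.78 and 1.53 CPM with overexpression and 1.44 and 1.44 with vector. Oasl2 was 0.509 and 0.526 CPM with overexpression and 0.48 and 0.692 with vector. None of the 3 passed the test, and the SE of their log2 fold changes was 0.32 to 0.49. Mx2 was 0.0727 and 0.239 CPM with overexpression and 0.0437 and 0.0576 with vector, too few reads for the test. Irf7 was 1.09 and 1.53 CPM with overexpression and 1.27 and 1.61 with vector. Irf9 was 18.7 and 18.5 CPM with overexpression and 15.3 and 17.1 with vector. Neither passed the adjusted p. Stat2 was 19 and 16.6 CPM with overexpression and 20.5 and 16.9 with vector. Ifih1 was 2.91 and 3.15 CPM with overexpression and 4.02 and 4.84 with vector. Stat2 overlapped between the groups, and Ifih1 was lower with overexpression without passing the test (log2 fold change -0.54, SE 0.23, adjusted p = 0.0613). Parp14 was 4.87 and 4.73 CPM with overexpression and 3.36 and 5.01 with vector. Lgals3bp was 45.7 and 47.3 CPM with overexpression and 48.2 and 54.6 with vector. Trim25 was 70.4 and 73.9 CPM with overexpression and 57.8 and 55.7 with vector. Of these, Trim25 passed the adjusted p (log2 fold change 0.34, SE 0.11, adjusted p = 0.0198).

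Against the change from P3 to P7, E2f4 overexpression differed upward for 4 members and downward for 1, where 11.4% and 11.7% of all genes did so. Gbp2 (1.47, SE 0.45, adjusted p = 0.00678) and Bst2 (1.41, SE 0.43, adjusted p = 0.00689) differed most in the upward direction, and the downward one was Ifit3 (-2.44, SE 0.98, adjusted p = 0.0372), which rose with passaging and fell with overexpression. Without overexpression replicate 1 or vector replicate 2, 3 members differed.

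In the Atf3 experiment the members were lower with the hairpins than with nt, but 1 control library decided the size of the difference. With sh5, 10 of 36 members tested were called lower and none higher, against 3.82% and 1.38% of all 13345 genes, with a median of -1.38. With sh6, 11 were called lower and none higher, against 10.9% and 4.83%, with a median of -1.01. The lowest were Mx2 (-2.80), Oasl2 (-2.24) and Irf7 (-2.17) with sh5, and Ifit3 (-2.84), Mx2 (-2.41) and Gbp3 (-2.26) with sh6. The smallest called falls were those of Gbp2 (-1.33), Dhx58 (-1.50) and Xaf1 (-1.51) with sh5, and Oas1a (-1.10), Dtx3l (-1.19) and Xaf1 (-1.24) with sh6. Between the hairpins, no member was called by edgeR's quasi-likelihood test, where 9.39% of all genes were called lower with sh6 and 6.36% higher; 1 member, Eif2ak2, passed the adjusted p alone (-0.64). At an unadjusted p under 0.05, 1 member was higher and 2 were lower, and DESeq2 called 1.

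In nt replicate 1, 37 of the 39 members had their highest value of the 3 nt libraries. Its level was a median 3.48 times the mean of the other two over the 36 members tested, from 1.16 to 12.5 times, and over 2 times for 30 of them, while the median over all genes tested was 1 and 1.22% of genes were over 2 times. Without it, 4 members were called lower with sh5 (Bst2 -1.54, Irf7 -1.25, Oas1a -1.10 and Oasl2 -1.08), against 3.47% of all genes, and 3 with sh6 (Trim30a -1.27, Gbp3 -1.20 and Oasl2 -1.04), against 9.97%. None was called higher, against 1.29% and 4.6% of all genes. With sh6 the share of members called lower was thus not above that of all genes. The medians were then -0.34 and -0.21, and 28 and 22 of 36 members were below 0. Without nt replicate 3, in which no member had its highest nt value, 25 members were called lower with sh5 and 20 with sh6. Over all genes these shares were 3.05% and 10.4%. Without sh6 replicate 1, 7 members were called lower with sh6, against 10.1% of all genes, and without sh6 replicate 2, 3, against 9.9%. Oasl2 is the member called lower with both hairpins with and without nt replicate 1. It was picked out after its values were seen, and both comparisons share the nt libraries.

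**Figure D4:**
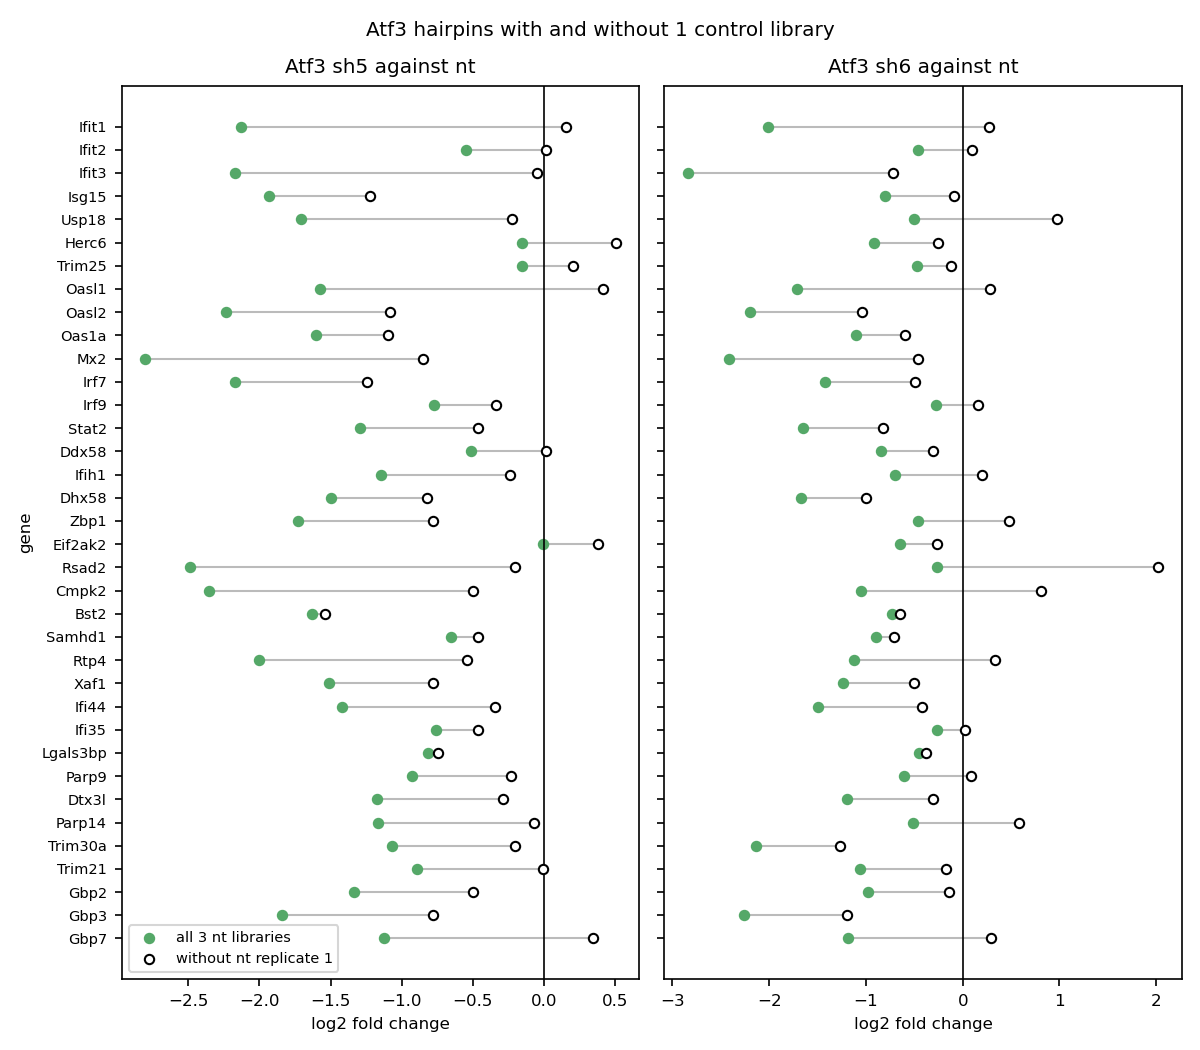
Log2 fold change of 36 members with Atf3 sh5 (left) and sh6 (right) against nt. Filled points use all 3 nt libraries, open points leave out nt replicate 1, a line joins the values of a gene, and the vertical line marks no change. With sh5, Ifit1 moved from -2.13 to 0.16 and Bst2 from -1.63 to -1.54.

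Ifit1 was 216, 23.3 and 11.2 CPM with nt, 25, 22.4 and 10.1 with sh5 and 12.6, 13.1 and 36.6 with sh6. Isg15 was 68.8, 35.2 and 12.3 CPM with nt, 9.64, 11.6 and 9.19 with sh5 and 40.3, 12.5 and 13.8 with sh6. Usp18 was 58, 12.1 and 6.33 CPM with nt, 8.61, 8.75 and 6.15 with sh5 and 20.5, 11.8 and 22.1 with sh6. In nt replicate 1 all 3 stood above every hairpin library, and nt replicate 3 lay within the range of the hairpin libraries. Oasl2 was 76.9, 21.1 and 11.9 CPM with nt, 8.34, 7.52 and 7.5 with sh5 and 7.73, 5.63 and 10.6 with sh6. Here every nt library was above every hairpin library (log2 fold change -2.24, SE 0.57, adjusted p = 0.0138 with sh5, log2 fold change -2.20, SE 0.57, adjusted p = 0.00889 with sh6). Mx2 was 17.9, 2.74 and 1.06 CPM with nt, 1.9, 0.768 and 0.451 with sh5 and 0.872, 1.14 and 2.09 with sh6. Irf7 was 43.3, 16 and 7.57 CPM with nt, 5.2, 6.45 and 3.16 with sh5 and 10.1, 5.75 and 9.12 with sh6. For Irf7 the sh5 libraries lay below all nt libraries (log2 fold change -2.17, SE 0.55, adjusted p = 0.0129), and the sh6 libraries overlapped with them. Irf9 was 60.3, 31.1 and 27.4 CPM with nt, 26.5, 25.5 and 17.5 with sh5 and 28.5, 26.9 and 42.8 with sh6. Stat2 was 166, 57.4 and 43 CPM with nt, 36.6, 42.5 and 30.1 with sh5 and 20.4, 21.2 and 43.2 with sh6. The third sh6 library of both was above the lowest nt library.

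Ddx58 was 127, 60.4 and 48.9 CPM with nt, 49.4, 52.8 and 63.7 with sh5 and 38.9, 34.8 and 58.4 with sh6. Ifih1 was 56.9, 19.6 and 12.2 CPM with nt, 14.2, 13.8 and 12.3 with sh5 and 16.6, 16.1 and 22.1 with sh6. Eif2ak2 was 115, 64.4 and 54.6 CPM with nt, 75.2, 76.1 and 81.3 with sh5 and 44.7, 43.9 and 60.4 with sh6. The 3 sensors overlapped between nt and hairpin libraries, and Eif2ak2 with sh5 was within the nt range. Bst2 was 106, 122 and 57.1 CPM with nt, 34.5, 36.2 and 21.3 with sh5 and 85.6, 50.9 and 34.9 with sh6. Lgals3bp was 306, 316 and 214 CPM with nt, 176, 180.2 and 119 with sh5 and 240.3, 196 and 176 with sh6. For these, nt replicate 2 was highest, the 2 exceptions to the pattern of replicate 1, and the sh5 libraries lay below all nt libraries (log2 fold change -1.63, SE 0.36, adjusted p = 0.00689 for Bst2). Parp14 was 63, 16 and 12.8 CPM with nt, 13.6, 16.5 and 10.9 with sh5 and 17.4, 18.1 and 29.2 with sh6. Trim25 was 151, 80.2 and 83.7 CPM with nt, 105, 105 and 74.3 with sh5 and 63.8, 65.3 and 97.7 with sh6. Gbp2 was 33.3, 10.9 and 9.19 CPM with nt, 5.9, 7.83 and 7.5 with sh5 and 10.5, 6.23 and 10.5 with sh6. Gbp2 was called lower with sh5 (log2 fold change -1.33, SE 0.44, adjusted p = 0.0375), and Parp14 and Trim25 were not.

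Against the change from P3 to P7, sh5 differed downward for 8 members and sh6 for 5, against 11.6% and 13.6% of all genes. No member differed upward, as 9.68% and 9.95% of all genes did. The direction rested on nt replicate 1: without it, 3 members differed upward and 2 downward with sh5, and 6 upward and 2 downward with sh6. Without nt replicate 2 the counts were 13 and 8, and without nt replicate 3 they were 19 and 12, all downward; without P3 replicate 4 the sh5 count was 4. The largest differences were those of Oas3 (-3.68, SE 1.25, adjusted p = 0.0126) and Ifit3 (-3.34, SE 0.63, adjusted p = 2.45e-05) with sh5, and of Ifit3 (-4.02, SE 0.64, adjusted p = 1.46e-06) and Oas2 (-2.76, SE 0.92, adjusted p = 0.0108) with sh6. Without nt replicate 1, the difference of Ifit3 still passed with sh5 (-1.21, adjusted p = 0.00561) and sh6 (-1.90, adjusted p = 5.19e-05). The change of Ifit3 against nt was then -0.05 with sh5 (adjusted p = 0.921) and -0.72 with sh6 (adjusted p = 0.0953), neither called. From P3 to P7 Ifit3 rose by 1.20, so what remained with sh5 came from the passage side. Oas3 (-2.51, adjusted p = 0.112) and Oas2 (-1.73, adjusted p = 0.119) no longer passed. Oas3 and Oas2 were measured at no more than 1.19 and 3.01 CPM in any library of this experiment. Libraries of the Atf3 groups also differed in other ways: 8 skeletal muscle genes summed to 199 to 216 CPM with sh6, 37.9 to 39.3 with nt and 16.7 to 18.3 with sh5. Of 12 fibroblast genes, 5 were called lower with sh6 than with nt (median -0.87) and 7 lower with sh6 than with sh5 (median -1.10), none higher. Xist was 301 to 327 CPM with nt, 407 to 464 with sh5 and 199.5 to 269 with sh6, and Ddx3y was 79.9 to 87.2, 92.1 to 104 and 120.1 to 135.5 CPM. Replicate 3 of sh5 stood apart from the others over all genes (chi-square per degree of freedom 55.9 and 59.9, against 3.2 between replicates 1 and 2). Without it, 13 members were called lower with sh5, against 2.54% of all genes. The part of these differences in the results was not tested.

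Few of the other genes of the pathway were called. Of 10 interferon genes looked at, Ifnb1 among them, 8 had any count, 27 counts in all over 44 libraries, with no more than 4 for a gene in a library, so that differences between groups were not detectable at this depth. Of 51 pathway genes listed (interferons, receptors, Janus kinases, sensors and adaptors, induction kinases, transcription factors, negative regulators and nucleases), 34 to 38 passed the filter. With Tead1 sh3 and sh4, compared with nt or with each other, none of 34 was called in either direction by edgeR's quasi-likelihood test. At an unadjusted p under 0.05, 11 were higher and 7 lower with sh3, 7 and 7 with sh4, and 2 and 6 with sh4 against sh3. The receptor genes Ifnar1 and Ifnar2 had log2 fold changes of 0.02 and 0.09 with E2f4 sh1, neither past the adjusted p. With Tead1 sh3 both passed it within the 2-fold limit, in opposite directions: Ifnar1 was lower (log2 fold change -0.13, SE 0.05, adjusted p = 0.0287) and Ifnar2 higher (log2 fold change 0.30, SE 0.06, adjusted p = 0.000345), with no overlap with nt. The kinase Tbk1, the adaptor Mavs and the factors Irf3 and Irf1 had 0.13, -0.28, -0.01 and 0.35 with E2f4 sh1, and 0.02, 0.02, -0.07 and 0.37 with Tead1 sh3.

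In the passages, few pathway genes were called. From P1 to P3, 4 of 38 were called lower and none higher, against 6.58% and 2.4% of all genes, led by Tlr7 (-3.96), an RNA sensor of immune cells. From P3 to P7, 3 were called lower and none higher, against 7.41% and 4.44% of all genes, again with Tlr7 the lowest (-2.06); the DNA sensor gene Cgas (-1.35) and the phosphatase gene Ptpn6 (-1.36) were the others. None was called from P3 to P5 or from P5 to P7 by edgeR's quasi-likelihood test, where 5 higher and 4 lower, and 2 higher and 5 lower, had an unadjusted p under 0.05. From P1 to P7, 1 was called higher and 5 lower, against 8.1% and 13.3% of all genes. With E2f4 overexpression, 4 of 35 were called higher and 4 lower, against 7.69% and 10.4% of all genes, from Socs3 (2.25), a feedback inhibitor of cytokine receptors, to Tlr4 (-1.80), the receptor for endotoxin. These shares were near the background, so they are no result about the pathway. With Atf3 sh5, 3 of 34 were called lower and none higher, against 3.82% and 1.38% of all genes, the lowest being the nuclease subunit Rnaseh2c (-2.24). With sh6, none was called higher, and the lowest of those called was Irf5 (-1.96).

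A list of 48 further interferon-induced genes was counted in the same way. With E2f4 sh1, 20 of 39 tested were called higher and none lower, against 1.46% and 0.211% of all genes. With Tead1 sh3, 16 of 40 were called higher and none lower, against 1.99% and 0.722%. Gbp6, an interferon-gamma-induced GTPase, was highest in both (4.22 and 4.26). With Tead1 sh4, 3 were called higher, against 1.01% of all genes, and 9 were lower with sh4 than with sh3, against 0.246%. From P5 to P7, 10 of 42 were called lower and none higher, against 2.28% and 1.19% of all genes. Between P3 and P7, 13 were called lower and 1, Ifit3b, a close relative of Ifit3, higher (1.12), against 7.41% and 4.44%. The counting may not tell all reads of Ifit3 and Ifit3b apart, so their separate levels are uncertain. The same holds for the Gbp, Oas and Trim30 families.

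ATAC-seq, which reads open chromatin, gave a measure that the rule for choosing the genes did not use. Of its 13 samples, 4 were taken at P1 and 3 at every later passage, and peaks were called in each sample. A peak within 1000 bases of a start was present in all 13 samples for 34 of the 39 members (87.2%), against 62.3% of 22006 protein-coding genes and 92.4% of 12930 genes tested in the passage RNA-seq. The 5 others were Ifi44, with no such peak in any sample, Oas2, with 1 sample, Oas3, with 10, and Oasl1 and Rsad2, with 12 each. Parp9 and Dtx3l share a promoter and hence a peak.

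The strength of a promoter peak was taken as its percentile by -log10 p among all peaks of the sample. From P1 to P3, the P3 samples lay below all P1 samples for 22 of 34 members and above them for 1, against 23.4% and 5.19% of 11942 genes. The median difference was -4.74 percentile points over the members and -0.74 over all genes. From P3 to P7, 6 members were lower and 10 higher without overlap, against 17.9% and 9.31%, and the median difference was 0.01. From P1 to P7, 17 were lower and 2 higher, against 38.8% and 10.4%. The Ifit1 promoter stood at percentiles of 79.7, 85.3, 81.7 and 78.8 at P1, 62.0, 63.6 and 50.6 at P3, 53.5, 74.8 and 63.4 at P5 and 76.0, 57.0 and 68.7 at P7. The Isg15 promoter stood at 67.2, 69.6, 58.5 and 73.0 at P1, 34.5, 52.7 and 53.5 at P3, 58.8, 70.4 and 45.9 at P5 and 57.9, 64.9 and 46.6 at P7. For both, all P3 samples lay below all P1 samples, and the P7 samples overlapped with those of P3. The Stat2 promoter, by contrast, was among the strongest peaks of every sample, from 98.4 to 99.7. The macrophage transcripts fell between P1 and P3 as well, and their part in the ATAC-seq difference was not tested.

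**Figure D5:**
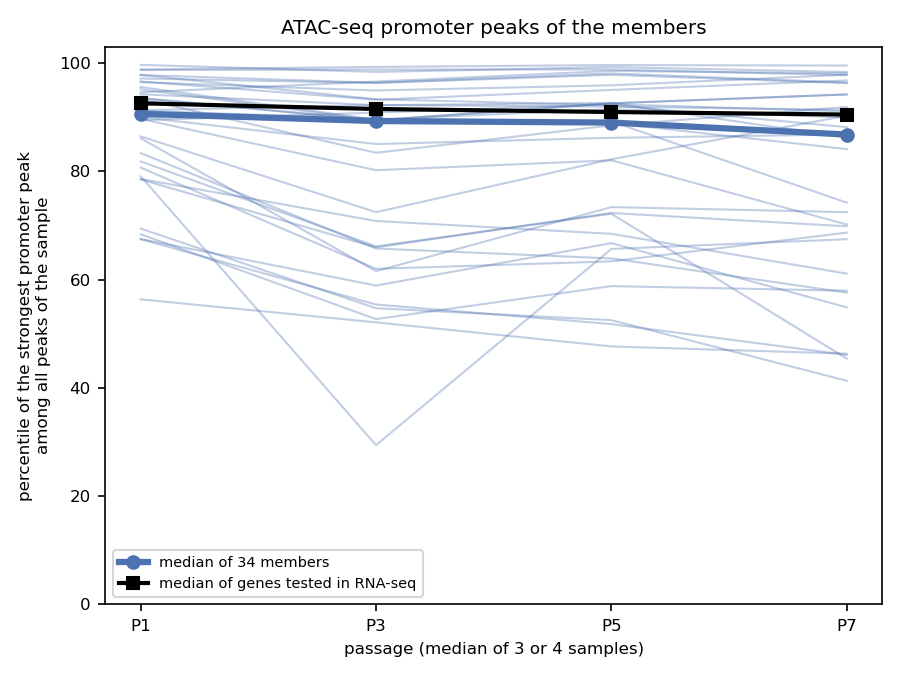
Percentile of the strongest promoter peak among all ATAC-seq peaks of a sample, by passage. Thin lines are the 34 members with a peak in all 13 samples (median of 3 or 4 samples a passage), the thick blue line is their median and the black line the median of genes tested in RNA-seq. The member median was 90.7 at P1, where the genes tested stood at 92.6, and several members dropped from P1 to P3.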

How the data were processed

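RNA-seq (44 libraries) and ATAC-seq (13 samples) of mouse skin fibroblasts were used. According to the study's methods and the submitters' processing notes, the authors trimmed reads with Trimmomatic 0.39, mapped RNA-seq reads with HISAT2 2.2.1 (mm10) and obtained gene counts from HTSeq 0.12.4. The deposited files hold raw read counts, 1 file a library. The ATAC-seq reads were aligned with Bowtie2 2.3.5.1, and peaks were called in each sample with MACS2. In the deposited peak files the strength of a peak is a −log10 p-value, and peaks were used by that column and by position. Summary rows that name no gene (7.5% to 16.8% of counts in the 28 intervention files, none in the passage files) were left out.

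Each experiment was fitted alone with edgeR 4.0.16 (R 4.3.3): filterByExpr, TMM scaling, quasi-likelihood F-test, Benjamini-Hochberg adjustment over all genes tested, and calls at an adjusted p under 0.05 with over 2-fold change. Differences between an intervention and the change from P3 to P7 were contrasts in a fit of all 44 libraries. SE is the log2 fold change divided by the square root of F. DESeq2 1.42.0, RLE scaling, other filters, no fold limit, a replicate block and leaving out each library were alternatives. The fits were tested on simulated counts. Replicates differed by more than sampling noise (chi-square per degree of freedom 2.74 to 59.9 over 50 pairs), so none was counted as a duplicate.

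For ATAC-seq, a promoter peak is the strongest peak within 1000 bases of an annotated start (GENCODE vM21), given as its percentile among the sample's peaks. The members, lists and tests were chosen with earlier results of these data known. Named in every library are 16 members, 1 or more per role, plus the 3 highest and 3 lowest called members of each comparison. Differences of changes are named by the 2 largest called in each direction. Members named outside that rule, such as Samhd1 and those of the Atf3 comparison without 1 control, were named after their values were seen. The labels do not say what a replicate number marks, so no pairing was used in the main fits. One pathway gene is not reported here.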

Additional observations from a re-analysis of the deposited data

Results flagged for a closer look

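Groups of 4 libraries or samples were examined for a single value far from the other 3 (Dixon's ratio above its 95% critical value), and 7 of 101 such groups were found, where chance gives about 1 in 20. Isg15 at P5 had a highest library of 37.5 CPM, with the other 3 from 10.1 to 14.7 CPM. Ddx58 at P5 had a lowest library of 42.8 CPM, with the others from 60.6 to 63.6 CPM. Parp14 at P3 had a lowest library of 21.9 CPM, with the others from 28.2 to 28.7 CPM. Gbp2 at P1 had a lowest library of 6.43 CPM, with the others from 7.54 to 7.72 CPM. Of the pathway genes, Ifnar1 at P3 had a lowest library of 88.3 CPM, Ifnar2 at P5 a lowest of 36.2 CPM and Irf3 at P3 a highest of 27.8 CPM.

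The change with an intervention differed from the change between P3 and P7 by a test of the difference in edgeR. The count of members past the threshold was 30 for E2f4 sh1, 29 for Tead1 sh3, 11 for Tead1 sh4, 8 for Atf3 sh5, 5 for Atf3 sh6 and 5 for E2f4 overexpression. Over all genes, 11.4% differed upward and 11.7% downward for E2f4 overexpression, and 9.95% and 13.6% for Atf3 sh6, so the members' shares there were near or below the background. The differences of log2 fold changes were 4.95 for Oasl2 and 4.31 for Ifit1 with E2f4 sh1, 5.23 for Oasl2 and 4.62 for Mx2 with Tead1 sh3, and 3.47 for Mx2 and 3.38 for Oasl2 with Tead1 sh4. With E2f4 overexpression they were 1.47 for Gbp2, 1.41 for Bst2 and -2.44 for Ifit3. With Atf3 sh5 they were -3.68 for Oas3 and -3.34 for Ifit3, and with Atf3 sh6 -4.02 for Ifit3 and -2.76 for Oas2. All of the Atf3 values include nt replicate 1, which stood far above the other nt libraries for most members.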

How the results depend on the processing

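None of the named log2 fold changes that had passed the test reversed under any alternative. Ifit1 with Atf3 sh5 and sh6, which had not passed it, went from -2.13 and -2.01 to 0.16 and 0.27 without nt replicate 1. Of the counts, the Atf3 differences from the passage change turned mostly upward without nt replicate 1 (3 up and 2 down with sh5, 6 up and 2 down with sh6). Of 1435 alternative values of 105 single log2 fold changes, 1333 kept their side of the threshold and 102 no longer passed it. Of 127 other settings of the counts of members called, 98 were within 1.5 times the count reported; the cause of the other changes was not tested. With no fold limit, which widens the calls by construction, the counts were 11 (P3 against P1), 6 (P5 against P3), 20 (P7 against P5), 32 (P7 against P1), 24 (P7 against P3), 12 (E2f4 overexpression), 14 (Tead1 sh4), 29 (Tead1 sh4 against sh3) and 1 (Atf3 sh6 against sh5). DESeq2 gave 1 for P5 against P3, 3 for Tead1 sh4, 9 for Tead1 sh4 against sh3 and 1 for Atf3 sh6 against sh5. With no filter on low counts there was 1 call for P5 against P3 and 19 for Atf3 sh5. With at least 10 counts in every library there was 1 for P5 against P3, 3 for E2f4 overexpression and 9 for Tead1 sh4 against sh3. In fits of only the 2 groups compared there were 6 for Atf3 sh5 and 4 for Atf3 sh6 against sh5. For the differences from the passage change, setting P7 against P1 in place of P3 gave 8 (E2f4 overexpression), 19 (Tead1 sh4) and 5 (Atf3 sh5), and no filter gave 8, 17 and 14.

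Leaving out 1 library at a time gave 1 to 4 calls for P3 against P1, 0 to 1 for P5 against P3, 5 to 10 for P7 against P5, 16 to 20 for P7 against P1, 5 to 8 for P7 against P3, 4 to 7 for E2f4 overexpression, 27 to 32 for E2f4 sh1, 23 to 26 for Tead1 sh3, 2 to 7 for Tead1 sh4, 9 to 18 for Tead1 sh4 against sh3, 4 to 25 for Atf3 sh5, 3 to 20 for Atf3 sh6 and 0 to 1 for Atf3 sh6 against sh5. For the differences from the passage change it gave 3 to 5 (E2f4 overexpression), 30 to 31 (E2f4 sh1), 25 to 29 (Tead1 sh3), 4 to 13 (Tead1 sh4), 4 to 19 (Atf3 sh5) and 4 to 12 (Atf3 sh6), and for members with a promoter peak in every ATAC-seq sample 34 to 36. Where this left 1 library in a group, that library was assumed to vary like the other groups. Of the alternatives above, the E2f4 sh1 and Tead1 sh3 counts stayed within 1.5 times of 30 and 25 in all.

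With the replicate number as a block, counts were 1 for P5 against P3, 7 for Atf3 sh6 and 1 for Atf3 sh6 against sh5, and within 1.5 times for the other comparisons. The labels do not say that equal numbers mark a shared culture, and pairing was neither shown nor excluded by the deviations from the group means. In no comparison of 3 or more pairs did every same-numbered pair correlate above 0.1. All such pairs were nonetheless positive for P3 against P1 (0.08 to 0.27), P7 against P1 (0.03 to 0.17), E2f4 sh1 (0.02 to 0.03) and Tead1 sh4 (0.03 to 0.11). In these comparisons every library also correlated best with its own number, which is a hint from the data. For DNA methylation the paper speaks of independent sample series followed over the passages. It does not say so for the RNA-seq libraries. Depth limits the members with the fewest reads: Mx1, Oas2 and Oas3 were not tested in several experiments, and Mx2 and Rsad2 had 4 and 6 counts over the 3 Tead1 nt libraries.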
